A study of Mus musculus with 36 samples.

Results

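The integrin and focal adhesion genes are 32 genes chosen by name from the 24411 genes measured by RNA-seq in cultured mouse mesenchymal stem cells (MSCs). They comprise 13 integrin alpha subunits, 8 beta subunits and 11 cytoplasmic proteins of focal adhesions. All 32 were present in the data. MSCs had been grown from the femoral bone marrow (fBM-MSCs), vertebral bone marrow (vBM-MSCs), adipose tissue (A-MSCs) and lung (P-MSCs) of 8-week-old C57BL6/J mice, with no genetic change and no treatment that differed between the groups. Marrow cells were released by crushing bone, whereas adipose tissue and lung were minced and digested with collagenase, so the dissociation step cannot be told apart from the bone marrow or non-bone marrow origin. Every culture was seeded in MesenCult medium with MesenPure and a Rock inhibitor on dishes coated with collagen I, itself a ligand of some of the integrins below, and was used within 3 passages. RNA came from 3 biological replicates a tissue, of which 3 fBM-MSC, 2 vBM-MSC, 3 A-MSC and 3 P-MSC libraries were used. The vBM-MSC sample numbered 3 was not analysed here. The tissues were taken from the same mice, but the labels do not tie libraries to animals, and every test treats libraries as independent. Chromatin accessibility (ATAC-seq) was available as 1 pooled list of peaks a tissue.

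Integrins are cell surface receptors built of one alpha and one beta subunit, and the pair decides which matrix protein is bound. Ligand binding and the binding of talin and kindlin to the beta tail activate the receptor, after which vinculin, paxillin, zyxin and the complex of ILK, PINCH and parvin tie it to actin, and focal adhesion kinase (FAK, gene Ptk2) signals from the same site. In MSCs these receptors anchor the cell to marrow, fat or lung matrix and to the culture dish. RNA levels say nothing of how much receptor stood at the surface or was active.

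Depth ranged from 19569650 to 40517739 expected counts a library. Levels are given as TPM, RSEM's transcript abundance, which is scaled for transcript length and library size so that genes can be set side by side. Differences are log2 fold changes ± SE from 1 edgeR model of all 11 libraries, called at a Benjamini-Hochberg adjusted p under 0.05 over all 12509 genes tested. Of 8 MSC markers listed, 6 were at 1 TPM or more in every library. Pdgfra was at 0.27 to 0.76 TPM in fBM-MSCs, and Nt5e was at 0.32 TPM in vBM-MSC replicate 1 and at 0 to 0.86 TPM in A-MSCs and P-MSCs. Summed markers of platelets (7 genes) lay between 0.55 and 2.06 TPM and 6 leukocyte integrin subunits outside the list summed to 0.66 TPM at most. The 7 endothelial markers summed to 3.53 to 55.5 TPM in A-MSCs, 2.55 to 8.29 TPM in P-MSCs and 1.19 TPM at most in bone marrow. Emcn alone was at 49.5 TPM in A-MSC replicate 1. Of the 4 endothelial markers tested, 3 were called lower in bone marrow and 0 higher. The 15 macrophage and myeloid markers summed to 45.3 to 71.9 TPM in fBM-MSCs, 24.7 to 55.1 TPM in vBM-MSCs, 19.4 to 27.9 TPM in A-MSCs and 15.2 to 17.1 TPM in P-MSCs. Of these, Lyz2 reached 38.6 TPM and Fcer1g 19.8 TPM in bone marrow, while Csf1r was at 0.60 to 1.16 TPM there, 5.46 to 6.56 TPM in A-MSCs and 2.21 to 2.76 TPM in P-MSCs. Adgre1 was at 0 in all libraries but A-MSC replicates 1 (0.34 TPM) and 3 (0.03 TPM). The part of such cells in the member levels was not tested. In bulk RNA, fewer cells of a type and less RNA per cell cannot be told apart.

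Nearly all of the integrin message of these MSCs came from a handful of subunits. Itgb1, the beta subunit shared by most matrix-binding integrins, held 88.3% ± 2.47 of the summed beta TPM in fBM-MSCs (SD, n = 3), 86.3% ± 0.98 in vBM-MSCs (SD, n = 2), 91.5% ± 0.76 in A-MSCs (SD, n = 3) and 96.3% ± 0.28 in P-MSCs (SD, n = 3). Itga5, which pairs with Itgb1 as the fibronectin receptor, held 87.5% ± 1.97 of the summed alpha TPM in A-MSCs (SD, n = 3) and 86.2% ± 0.35 in P-MSCs (SD, n = 3). In vBM-MSCs its share was 72.7% ± 3.01 (SD, n = 2), and in fBM-MSCs 48.8% ± 11.1 (SD, n = 3), where it ran from 36.4% in replicate 3 to 57.6% in replicate 1. The fBM-MSCs filled the rest mainly with Itga11 at 19.1% ± 13.2 and Itgav at 18.9% ± 3.56 (SD, n = 3). The ratio of summed beta to summed alpha TPM was 6.82 ± 0.97 in fBM-MSCs (SD, n = 3) and 1.11 ± 0.11 in A-MSCs (SD, n = 3). It was 2.94 ± 0.96 for vBM-MSCs (SD, n = 2) and 2.96 ± 0.22 for P-MSCs (SD, n = 3). These shares describe RNA and were not tested.

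**Figure D1:**
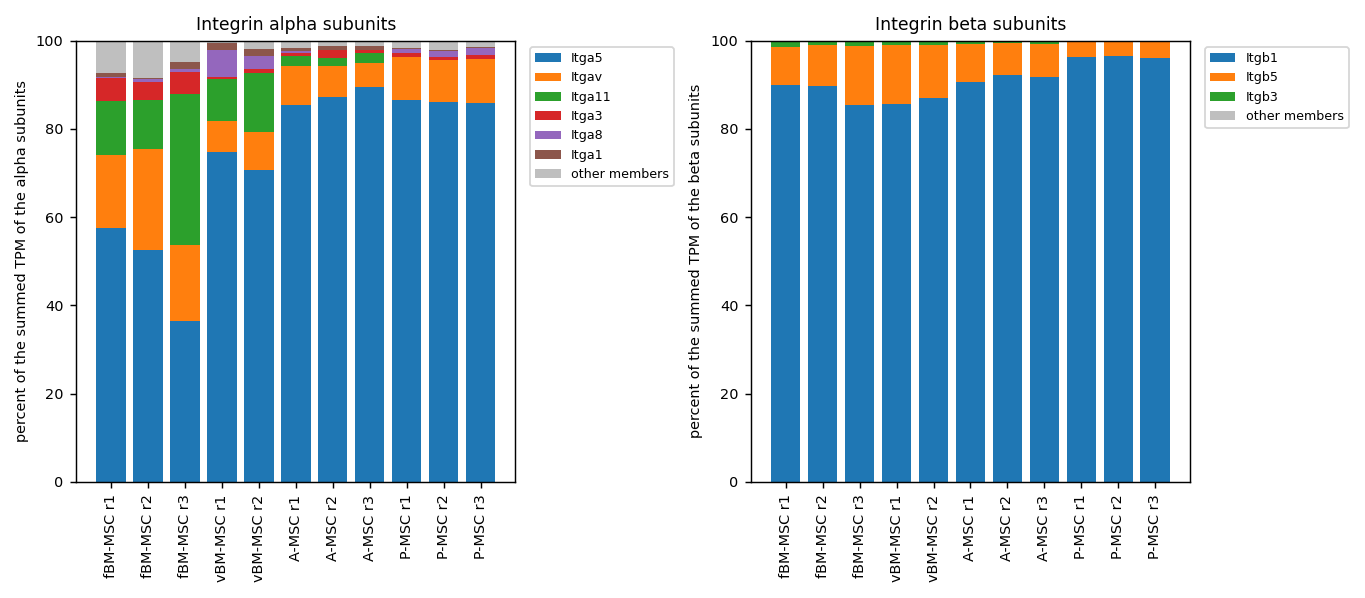
Each bar is 1 library, split into the percent of the summed TPM of the 13 alpha subunits (left) or the 8 beta subunits (right) that each named subunit holds, with the other members pooled in grey. The share of Itga5 is 36.4% to 57.6% in the fBM-MSC libraries and above 70% in all others, and the green part, Itga11, is visible only in bone marrow and A-MSC libraries.

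Of the 32 genes, 27 passed the filter on low counts and 5 did not (Itga2b, Itgb2, Itgb4, Itgb6 and Itgb8). Among the 4 tissues together 23 of the 27 tested differed (85.2%), where 60.6% of all tested genes did. The 23 include Itga10, Itgb7 and Itga4, which passed the filter only through libraries of tissues where they were high. Their calls are no support for a difference. Bone marrow and non-bone marrow MSCs differed in 15, with 6 higher and 9 lower in bone marrow, against a background of 47.2% of genes called (24.8% higher and 22.4% lower). These counts include Itga10 (higher) and Itgb7 (lower), which passed the filter only through libraries of the side where they were high. The fBM-MSCs differed from vBM-MSCs in 10, with 3 higher and 7 lower in fBM-MSCs, against 12.8% of genes (5.24% higher and 7.56% lower). The 3 include Itgb7, with 0 and 2 counts in vBM-MSCs, a call lost in 14 of 18 alternatives. The A-MSCs differed from P-MSCs in 15, with 11 higher and 4 lower in A-MSCs, against 30.9% of genes (16.0% higher and 14.9% lower). Each remaining pair of tissues was also compared. The fBM-MSCs differed from A-MSCs in 17 members, 7 higher and 10 lower, against 40.9% of genes (20.6% higher and 20.3% lower), and from P-MSCs in 17, against 47.7%. The vBM-MSCs differed from A-MSCs in 13, against 25.6%, and from P-MSCs in 14, against 38.7%. Each of these 4 counts includes Itga10, those of vBM-MSCs also Itgb7, and that of fBM-MSCs against A-MSCs also Itga4, which had 0 to 8 counts in A-MSCs. From the mean of the other tissues the A-MSCs differed in 14, with 11 higher and 3 lower, against 29.9% (16.0% higher and 13.9% lower). These comparisons share libraries and are not independent. The median log2 fold change of the tested members was -0.06 in bone marrow against non-bone marrow (all genes 0.03), -0.25 in fBM-MSCs against vBM-MSCs (0.02) and 0.35 in A-MSCs against P-MSCs (-0.01). These medians moved with single libraries or the scale. The bone marrow median was -0.22 without vBM-MSC replicate 2 and above 0 without vBM-MSC replicate 1 (0.10), A-MSC replicate 2 (0.07) or P-MSC replicate 2 (0.05), so it has no stable direction. The median of fBM-MSCs against vBM-MSCs was -0.05 without vBM-MSC replicate 2 and -0.11 without fBM-MSC replicate 3, and that of A-MSCs against P-MSCs was 0.12 on log2(TPM + 1).

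The balance of calls changed with the input and the test together. On log2(TPM + 1) with limma-trend in place of counts with edgeR, A-MSCs were higher than P-MSCs in 6 members and lower in 5. On that scale the median of all genes moved to -0.16 and only 30.1% of all called genes were higher in A-MSCs, against 51.7% with edgeR. The same setting gave 2 members higher and 10 lower in fBM-MSCs against vBM-MSCs. With RLE size factors alone changed, the A-MSC against P-MSC split was again 11 higher and 4 lower. Leaving out replicate 1 of the vBM-MSCs left 5 calls between the bone marrow tissues, a model of these 2 tissues alone left 4, and leaving out replicate 1 of the P-MSCs left 9 calls between A-MSCs and P-MSCs.

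**Figure D2:**
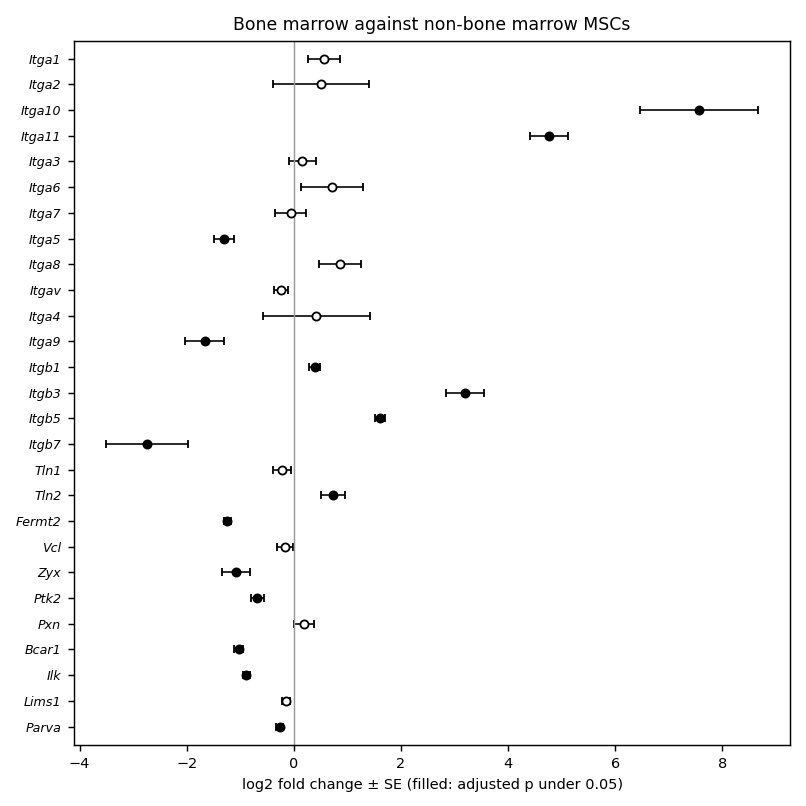
Log2 fold change ± SE of the 27 tested members in bone marrow (5 libraries) against non-bone marrow MSCs (6 libraries), from edgeR, with filled points at an adjusted p under 0.05. Itga11, Itgb3 and Itgb5 lie to the right and Itga5, Itga9, Fermt2, Zyx, Bcar1 and Ilk to the left, while the values of Itga10 and Itgb7, at or near 0 counts in some tissues, depend on the prior count.

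Of the collagen-binding subunits, Itga11 was higher in bone marrow, and Itga1 and Itga2 did not pass. Itga11, which pairs with Itgb1 to bind fibrillar collagen I, is encoded on chromosome 9 (chr9:62677855-62783979, plus strand, mm10). Its level was 20.6, 15.4 and 39.8 TPM in fBM-MSCs, 36.1 and 44.9 TPM in vBM-MSCs, 10.4, 8.57 and 10.8 TPM in A-MSCs, and 0.28, 0.02 and 0.09 TPM in P-MSCs. Every bone marrow library was above every A-MSC library, and the P-MSCs, with 38, 2 and 11 counts, lay far below all. Bone marrow exceeded non-bone marrow MSCs by 4.76 ± 0.36 log2 units (edgeR, adjusted p = 1.52e-06), and A-MSCs exceeded P-MSCs by 6.32 ± 0.56 (edgeR, adjusted p = 2.5e-05). The fBM-MSCs and vBM-MSCs differed by -0.63 ± 0.43, which did not pass (edgeR, adjusted p = 0.381). Between fBM-MSCs and A-MSCs the difference of 1.29 ± 0.40 (edgeR, adjusted p = 0.0236) was lost without fBM-MSC replicate 3 (0.79, adjusted p = 0.083) or without A-MSC replicate 1 (1.31, adjusted p = 0.063), 2 (1.19, adjusted p = 0.082) or 3 (1.37, adjusted p = 0.054), and with DESeq2 (1.29, adjusted p = 0.123).

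Itga1, the other collagen receptor subunit expressed here and one that prefers collagen IV, had a different order. It stood at 1.42, 0.46 and 1.88 TPM in fBM-MSCs, 6.35 and 4.92 TPM in vBM-MSCs, 3.48, 3.81 and 3.59 TPM in A-MSCs, and 1.01, 1.03 and 0.71 TPM in P-MSCs. The vBM-MSC and A-MSC libraries were all above those of fBM-MSCs and P-MSCs. The fBM-MSCs were lower than vBM-MSCs by -2.13 ± 0.44 (edgeR, adjusted p = 0.0106), a call lost without vBM-MSC replicate 1 (-1.83, adjusted p = 0.082) and in a model of these 2 tissues (adjusted p = 0.1001). The A-MSCs exceeded P-MSCs by 2.17 ± 0.42 (edgeR, adjusted p = 0.00274), and bone marrow as a whole did not differ from non-bone marrow past the threshold (0.56 ± 0.30, edgeR, adjusted p = 0.145). The level of Itga11 over that of Itga1 ran from 14.5 to 33.4 in fBM-MSCs and from 5.68 to 9.13 in vBM-MSCs. It ran from 2.25 to 2.997 for A-MSCs and from 0.0194 to 0.277 for P-MSCs, so no tissues overlapped. Itga10, a cartilage collagen receptor subunit, reached 1.01 TPM at most. It had 256 counts over the 5 bone marrow libraries and 1 over the 6 others, a ratio of depth-scaled counts of 357 with an exact 95% interval from 63.4 to 14142 for counting error only, and since it passed the filter only through bone marrow libraries its calls are no support for a difference. Itga2, whose product binds collagen I in epithelia and platelets, stayed between 0 and 0.59 TPM and did not differ among tissues (edgeR, adjusted p = 0.954).

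Itga5, the alpha subunit of the fibronectin receptor, ran the other way. It was measured at 97.9, 73.8 and 42.2 TPM in fBM-MSCs, 285 and 236 TPM in vBM-MSCs, 399, 440 and 430 TPM in A-MSCs, and 267, 296 and 259 TPM in P-MSCs. The fBM-MSC libraries were all below the other 8, the A-MSC libraries all above, and vBM-MSCs and P-MSCs overlapped. It was lower in fBM-MSCs than in vBM-MSCs by -1.84 ± 0.27 (edgeR, adjusted p = 0.00164; 0.051 in a model of these 2 tissues) and lower in bone marrow than in non-bone marrow MSCs by -1.31 ± 0.19 (edgeR, adjusted p = 0.000163). The vBM-MSCs and P-MSCs differed by 0.02 ± 0.27 (edgeR, adjusted p = 0.965). Between A-MSCs and P-MSCs the difference of 0.82 ± 0.24 (edgeR, adjusted p = 0.0248) was lost in 7 of 19 alternatives. Among them were those without A-MSC replicate 2 (0.79, adjusted p = 0.063) or 3 (0.79, adjusted p = 0.067) and without P-MSC replicate 1 (0.81, adjusted p = 0.074), 2 (0.88, adjusted p = 0.055) or 3 (0.77, adjusted p = 0.084).

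Itgav, the partner of several beta subunits in receptors for vitronectin and for latent TGF-beta, lay between 19.9 and 40.9 TPM in all 11 libraries and did not pass the test among tissues (edgeR, adjusted p = 0.153). The level of Itga5 relative to Itgav was 2.12 to 3.47 in fBM-MSCs. In the other tissues it was higher, at 8.16 to 10.6 for vBM-MSCs, 9.76 to 16.4 for A-MSCs and 8.68 to 9.04 for P-MSCs. Itga8, an RGD-binding subunit best known as the nephronectin receptor of developing kidney, was highest in vBM-MSCs. Its level was 0.46, 0.88 and 0.65 TPM in fBM-MSCs, 22.8 and 10.4 TPM in vBM-MSCs, 1.5, 0.78 and 0.24 TPM in A-MSCs, and 2.66, 4.73 and 5.21 TPM in P-MSCs. Both vBM-MSC libraries were above all others, with replicate 1 well above replicate 2. The fBM-MSCs were lower than vBM-MSCs by -4.63 ± 0.61 (edgeR, adjusted p = 0.000846), and A-MSCs lower than P-MSCs by -2.15 ± 0.53 (edgeR, adjusted p = 0.011). The vBM-MSCs exceeded A-MSCs by 4.25 ± 0.60 (edgeR, adjusted p = 0.000546) and P-MSCs by 2.10 ± 0.55 (edgeR, adjusted p = 0.0107), the latter lost without vBM-MSC replicate 1 (1.30, adjusted p = 0.157). Itga2b, the platelet fibrinogen receptor subunit, reached 0.92 TPM at most and was not tested.

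Of the laminin-binding subunits, Itga3 and Itga7 were higher in fBM-MSCs than in vBM-MSCs, and no library reached 10 TPM of any. Itga3, an epithelial laminin receptor subunit, was at 8.92, 5.96 and 5.73 TPM in fBM-MSCs, 2.02 and 2.82 TPM in vBM-MSCs, 3.35, 8.96 and 3.88 TPM in A-MSCs, and 2.78, 2.03 and 2.60 TPM in P-MSCs. Replicate 2 of the A-MSCs stood above the other A-MSC libraries, and of the 9 epithelial markers Krt8 (21.0 TPM), Krt18 (27.1 TPM) and Cldn4 (9.02 TPM) were also highest in it, while Krt14 (2.96 TPM) and Epcam (0.22 TPM) were lowest in it among the A-MSC libraries. The part of such cells in the level of Itga3 was not tested. The fBM-MSCs exceeded vBM-MSCs by 1.54 ± 0.40 (edgeR, adjusted p = 0.0283), a call lost without fBM-MSC replicate 1 (1.30, adjusted p = 0.063), vBM-MSC replicate 1 (1.39, adjusted p = 0.171) or vBM-MSC replicate 2 (1.69, adjusted p = 0.061). The A-MSCs exceeded P-MSCs by 1.33 ± 0.34 (edgeR, adjusted p = 0.0131), which did not hold without P-MSC replicate 2 (1.21, adjusted p = 0.055) or on log2(TPM + 1) (adjusted p = 0.054).

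Itga7, the laminin receptor subunit of muscle, was at 2.57, 4.86 and 2.70 TPM in fBM-MSCs, 0.57 and 1.08 TPM in vBM-MSCs, 1.97, 2.83 and 1.63 TPM in A-MSCs, and 1.62, 1.78 and 0.77 TPM in P-MSCs. The fBM-MSC libraries did not overlap those of vBM-MSCs or P-MSCs. Its excess over vBM-MSCs of 2.08 ± 0.47 (edgeR, adjusted p = 0.0158) was lost without vBM-MSC replicate 1 (1.76, adjusted p = 0.125) and in a model of these 2 tissues (adjusted p = 0.066). Itga6, which marks many stem cells and pairs with Itgb4 in hemidesmosomes, ranged from 0.33 to 8.39 TPM, varied as widely within fBM-MSCs (0.83 to 8.39 TPM) as between tissues, and did not pass the test (edgeR, adjusted p = 0.133). Between bone marrow and non-bone marrow tissues none of these 3 genes passed with edgeR (lowest adjusted p = 0.338). Itgb4 itself reached 0.21 TPM at most.

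Itga9, which with Itgb1 binds tenascin C and osteopontin, was highest in A-MSCs. It measured 0.42, 0.53 and 0.29 TPM in fBM-MSCs, 0.27 and 1.41 TPM in vBM-MSCs, 3.08, 2.25 and 3.43 TPM in A-MSCs, and 1.18, 1.20 and 1.01 TPM in P-MSCs. All A-MSC libraries were above all others. The vBM-MSCs overlapped both fBM-MSCs and P-MSCs, while every fBM-MSC library was below every P-MSC library. That difference, -1.34 ± 0.48 (edgeR, adjusted p = 0.0371), was lost in 8 of 18 alternatives. It was lower in bone marrow than in non-bone marrow MSCs by -1.66 ± 0.36 (edgeR, adjusted p = 0.00284). Its excess in A-MSCs over P-MSCs, 1.56 ± 0.46 (edgeR, adjusted p = 0.0249), was lost when 1 of 5 libraries was left out (A-MSC replicate 1, adjusted p = 0.061, or 3, adjusted p = 0.080, and P-MSC replicate 1, adjusted p = 0.069, 2, adjusted p = 0.067, or 3, adjusted p = 0.085). Most mesothelial markers moved the same way. Of the 7 listed, 6 were called higher in A-MSCs than in P-MSCs and 1 lower. The lower one was Krt19, at 17.1 to 18.9 TPM in A-MSCs and 51.7 to 59.8 TPM in P-MSCs. All 7 were at 1 TPM or more in every A-MSC library, with a sum of 109 to 160 TPM. The sum was 2.32 to 14.7 TPM in fBM-MSCs, 18.9 to 23.9 TPM in vBM-MSCs and, mostly from Krt19, 76.2 to 98.8 TPM in P-MSCs. Wt1, Lrrn4 and Gpm6a were at 0 in every library of the other tissues. The part of cells with these 7 markers in the level of Itga9 was not tested. Itga4, whose product binds VCAM1 and fibronectin on leukocytes, reached 0.29 TPM at most.

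Among beta subunits, Itgb1 was by far the most abundant and the least in A-MSCs. Its level was 897, 984 and 672 TPM in fBM-MSCs, 739 and 1051 TPM in vBM-MSCs, 522, 480 and 466 TPM in A-MSCs, and 822, 970 and 924 TPM in P-MSCs. The A-MSC libraries lay below the other 8, which overlapped. The A-MSCs were lower than P-MSCs by -0.70 ± 0.14 (edgeR, adjusted p = 0.00345) and fBM-MSCs higher than A-MSCs by 0.73 ± 0.14 (edgeR, adjusted p = 0.00169). The difference between bone marrow and non-bone marrow, 0.39 ± 0.10 (edgeR, adjusted p = 0.00884), came with values of 0.03 ± 0.14 for fBM-MSCs against P-MSCs (edgeR, adjusted p = 0.872) and 0.05 ± 0.15 for vBM-MSCs against P-MSCs (edgeR, adjusted p = 0.82).

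The vitronectin receptor subunits Itgb5 and Itgb3 were higher in bone marrow. Itgb5, the alphav partner of many mesenchymal cells, measured 86.7, 101 and 105 TPM in fBM-MSCs, 116 and 147 TPM in vBM-MSCs, 49.8, 37.9 and 37.5 TPM in A-MSCs, and 30.3, 33.1 and 35.3 TPM in P-MSCs. Bone marrow and non-bone marrow libraries did not overlap, and neither did any pair of tissues. Bone marrow was higher by 1.61 ± 0.09 (edgeR, adjusted p = 2.23e-07). The excess of A-MSCs over P-MSCs, 0.53 ± 0.12 (edgeR, adjusted p = 0.00718), fell to 0.32 on log2(TPM + 1) and no longer passed (limma, adjusted p = 0.087). Itgb3, the beta subunit of the osteoclast and platelet receptors, was lower in level. It stood at 13.5, 10.8 and 7.97 TPM in fBM-MSCs, 8.25 and 10.1 TPM in vBM-MSCs, 3.22, 1.83 and 3.34 TPM in A-MSCs, and 0.86, 0.20 and 0.19 TPM in P-MSCs. Every bone marrow library exceeded every A-MSC library and every A-MSC library exceeded every P-MSC library. The differences were 3.19 ± 0.36 for bone marrow against non-bone marrow (edgeR, adjusted p = 2.71e-05) and 2.91 ± 0.50 for A-MSCs against P-MSCs (edgeR, adjusted p = 0.00153), where the P-MSCs had 136, 24 and 26 counts. The ratio of Itgb5 to Itgb3 was 6.43 to 20.7 in fBM-MSCs, vBM-MSCs and A-MSCs and 35.3 to 186 in P-MSCs.

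The remaining beta subunits were under 1 TPM in every library. Itgb2, the leukocyte beta subunit, reached 0.35 TPM, Itgb6, the epithelial activator of TGF-beta, 0.69 TPM, and Itgb8, the other activator of TGF-beta, 0.17 TPM. Itgb7, the lymphocyte homing subunit, was between 0 and 0.96 TPM. It had 0 to 57 counts a library, with only 0 and 2 in the vBM-MSCs, and passed the filter through 3 A-MSC and P-MSC libraries only, so its call as lower in bone marrow is no support for a difference. Its difference between fBM-MSCs and vBM-MSCs (adjusted p = 0.043 with edgeR) was lost in most alternatives.

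**Figure D3:**
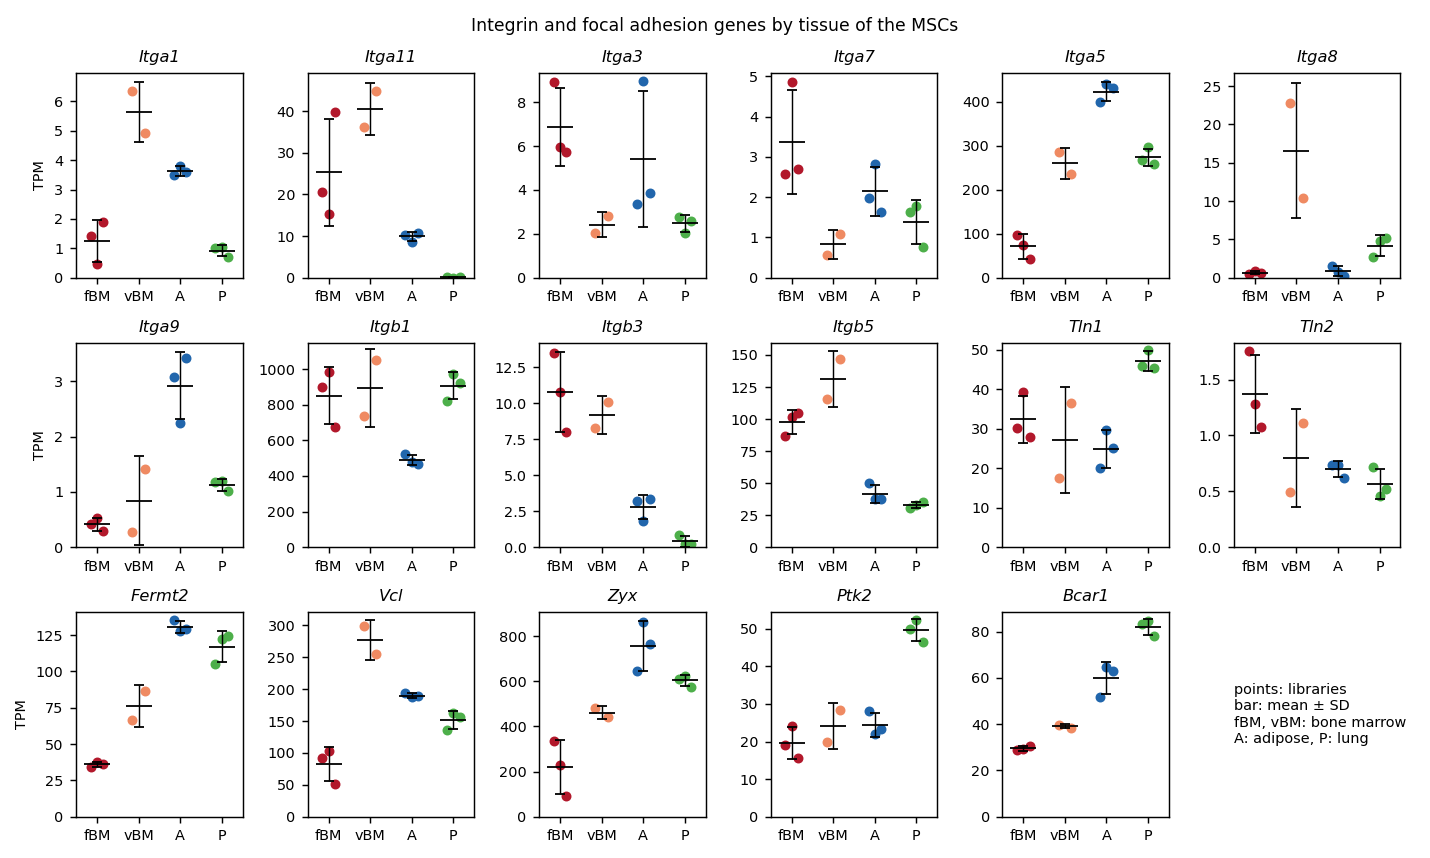
TPM of 17 members in each library (points), with the mean and SD of each tissue (bars). The bone marrow tissues share high Itga11, Itgb3 and Itgb5, the fBM-MSCs are the lowest in Itga5, Vcl, Zyx and Fermt2, and Ptk2 is highest in the P-MSCs.

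Among activators and actin linkers, Fermt2 and Vcl were lower in fBM-MSCs than in each other tissue. Fermt2 (kindlin-2), which with talin switches integrins on, measured 34.2, 37.4 and 36.4 TPM in fBM-MSCs, 66.3 and 86.3 TPM in vBM-MSCs, 136, 128 and 129 TPM in A-MSCs, and 105, 122 and 124 TPM in P-MSCs. The fBM-MSC libraries were lowest, the vBM-MSC libraries intermediate and the other libraries highest. Fermt2 was lower in bone marrow by -1.24 ± 0.07 (edgeR, adjusted p = 2.74e-07) and lower in fBM-MSCs than in vBM-MSCs by -1.03 ± 0.10 (edgeR, adjusted p = 0.000186). The difference between A-MSCs and P-MSCs, 0.35 ± 0.09 (edgeR, adjusted p = 0.0149), was 0.16 on log2(TPM + 1) (limma, adjusted p = 0.279) and was also lost without P-MSC replicate 1 (0.29, adjusted p = 0.072).

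Vcl (vinculin), which reinforces the bond of talin to actin under tension, was at 92.2, 103 and 51.9 TPM in fBM-MSCs, 299 and 255 TPM in vBM-MSCs, 194, 187 and 189 TPM in A-MSCs, and 136, 162 and 156 TPM in P-MSCs. No tissues overlapped, in the order vBM-MSCs, A-MSCs, P-MSCs and fBM-MSCs. The fBM-MSCs were lower than vBM-MSCs by -1.72 ± 0.23 (edgeR, adjusted p = 0.000814). Since the bone marrow tissues took the ends of the order, bone marrow and non-bone marrow differed by -0.16 ± 0.15, which did not pass (edgeR, adjusted p = 0.415). Between A-MSCs and P-MSCs, neighbours in this order, the difference of 0.52 ± 0.20 did not pass either (edgeR, adjusted p = 0.0752).

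Zyx (zyxin), which gathers at adhesions and stress fibres under force, measured 333, 230 and 93.6 TPM in fBM-MSCs, 480 and 442 TPM in vBM-MSCs, 644, 863 and 765 TPM in A-MSCs, and 610, 624 and 576 TPM in P-MSCs. The bone marrow libraries were all below the others, and fBM-MSC replicate 3 was far below the other fBM-MSC libraries, as it was for Itga5 and Vcl. Bone marrow was lower by -1.08 ± 0.26 (edgeR, adjusted p = 0.00467), while the difference of -1.04 ± 0.37 between fBM-MSCs and vBM-MSCs did not pass (edgeR, adjusted p = 0.0884). Like Fermt2, Vcl, Zyx and Itga5, the summed contractile markers were lowest in fBM-MSCs. The 8 smooth muscle and pericyte markers listed, most of whose sum is Acta2 and Tagln, summed to 1077 to 1475 TPM in fBM-MSCs, 6221 to 7741 TPM in vBM-MSCs, 12350 to 12939 TPM in A-MSCs and 4529 to 5254 TPM in P-MSCs. Of the 8, 6 were called lower and 2 higher in bone marrow, such as Cspg4 at 4.53 to 17.5 TPM there and 1.01 to 5.86 TPM elsewhere, and Rgs5 was at 0 in every A-MSC library. Their part in the levels of these 4 genes was not tested.

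The talins differed less. Tln1, the main talin outside muscle and brain, was at 30.2, 39.2 and 27.9 TPM in fBM-MSCs, 17.6 and 36.6 TPM in vBM-MSCs, 20.1, 29.6 and 25.1 TPM in A-MSCs, and 45.8, 49.97 and 45.5 TPM in P-MSCs. The P-MSC libraries were above all others. The A-MSCs were lower than P-MSCs by -0.72 ± 0.21 (edgeR, adjusted p = 0.0234), a call lost without A-MSC replicate 1 (-0.58, adjusted p = 0.089) or 3 (-0.74, adjusted p = 0.060) and without P-MSC replicate 1 (-0.74, adjusted p = 0.056), 2 (-0.68, adjusted p = 0.073) or 3 (-0.75, adjusted p = 0.052). Tln2, the talin of muscle and brain, was at 1.76, 1.28 and 1.08 TPM in fBM-MSCs, 0.49 and 1.11 TPM in vBM-MSCs, 0.74, 0.74 and 0.62 TPM in A-MSCs, and 0.72, 0.46 and 0.52 TPM in P-MSCs. Its fBM-MSC libraries exceeded those of A-MSCs and P-MSCs. The excess in bone marrow, 0.73 ± 0.23 (edgeR, adjusted p = 0.0219), was lost in 6 of 18 alternatives. Among them were those without fBM-MSC replicate 1 (0.61, adjusted p = 0.053) or P-MSC replicate 2 (0.66, adjusted p = 0.053). Without vBM-MSC replicate 2 the excess was 0.43.

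Of FAK and its scaffolds, Ptk2 and Bcar1 were lower in bone marrow and Pxn did not differ. Ptk2 (FAK), the tyrosine kinase of focal adhesions, measured 19.2, 24.0 and 15.6 TPM in fBM-MSCs, 19.8 and 28.4 TPM in vBM-MSCs, 28.0, 21.9 and 23.4 TPM in A-MSCs, and 50.03, 52.2 and 46.4 TPM in P-MSCs. Every P-MSC library was above all others, and those overlapped. The A-MSCs were lower than P-MSCs by -0.83 ± 0.15 (edgeR, adjusted p = 0.00218), fBM-MSCs by -1.22 ± 0.15 (edgeR, adjusted p = 7e-05) and vBM-MSCs by -0.97 ± 0.17 (edgeR, adjusted p = 0.0012). The value for bone marrow against non-bone marrow, -0.68 ± 0.12 (edgeR, adjusted p = 0.000538), came with values for fBM-MSCs against A-MSCs (-0.39 ± 0.15, edgeR, adjusted p = 0.0607) and vBM-MSCs against A-MSCs (-0.14 ± 0.17, edgeR, adjusted p = 0.589) that did not pass. Bcar1 (p130Cas), a scaffold that FAK and Src phosphorylate, was at 28.8, 29.2 and 30.8 TPM in fBM-MSCs, 39.7 and 38.6 TPM in vBM-MSCs, 52.0, 64.8 and 62.9 TPM in A-MSCs, and 83.1, 84.8 and 78.0 TPM in P-MSCs. No tissues overlapped. Bone marrow was lower by -1.03 ± 0.09 (edgeR, adjusted p = 3.29e-06), whereas the neighbouring fBM-MSCs and vBM-MSCs (-0.36 ± 0.13, edgeR, adjusted p = 0.0822) and A-MSCs and P-MSCs (-0.26 ± 0.11, edgeR, adjusted p = 0.106) did not pass. Pxn (paxillin), the scaffold that FAK binds, lay between 10.02 and 25.8 TPM and did not differ among tissues (edgeR, adjusted p = 0.784).

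In the complex of ILK, PINCH and parvin, Ilk and Parva were lower in bone marrow and Lims1 was not. Ilk, its pseudokinase core, ranged from 213 to 236 TPM in fBM-MSCs, 271 to 290 TPM in vBM-MSCs, 471 to 498 TPM in A-MSCs and 417 to 465 TPM in P-MSCs, with no overlap between tissues. Bone marrow was lower by -0.89 ± 0.06 (edgeR, adjusted p = 9.98e-07). The A-MSCs exceeded P-MSCs by 0.31 ± 0.08 (edgeR, adjusted p = 0.0137), a call lost without P-MSC replicate 1 (0.28, adjusted p = 0.064) and on log2(TPM + 1) (limma, 0.12, adjusted p = 0.270). Parva (alpha-parvin, which binds actin) ranged from 91.2 to 149 TPM and was lower in bone marrow by -0.26 ± 0.06 (edgeR, adjusted p = 0.00607). The vBM-MSCs alone did not differ past the threshold from A-MSCs (-0.20 ± 0.10, edgeR, adjusted p = 0.163) or P-MSCs (0.09 ± 0.10, edgeR, adjusted p = 0.509). Lims1 (PINCH1) ranged from 56.6 to 92.2 TPM and was called between A-MSCs and P-MSCs (0.59 ± 0.10, edgeR, adjusted p = 0.00162) and not between bone marrow and non-bone marrow (-0.15 ± 0.08, edgeR, adjusted p = 0.133). Exons of Itgb4, Zyx, Ilk, Itga4, Itga8 and Itga7 overlap exons of a neighbouring gene on the opposite strand, by 10 bases in Itga7 to 589 in Itgb4. The libraries do not mark strand, so any reads there could belong to either gene.

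**Figure D4:**
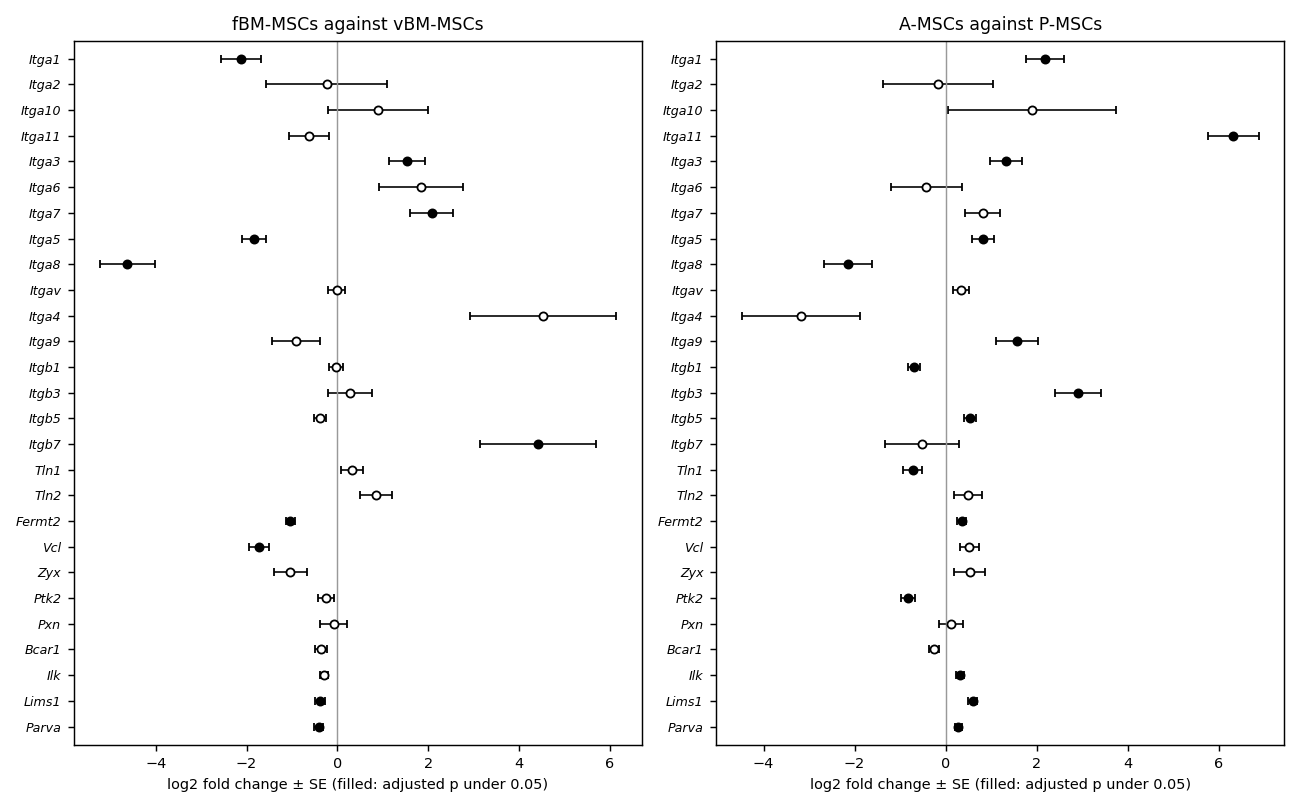
Log2 fold change ± SE of the 27 tested members in fBM-MSCs against vBM-MSCs (left) and A-MSCs against P-MSCs (right), with filled points at an adjusted p under 0.05. Left, Itga5, Itga8, Vcl and Fermt2 are lower in fBM-MSCs. Right, Itga11, Itgb3 and Itga1 are higher and Itga8, Itgb1, Tln1 and Ptk2 lower in A-MSCs.

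A level above that of every other tissue, with all 3 tests passed, was found for 5 members, where 14% of all tested genes had one. They were Itga8 in vBM-MSCs (background 1.64%), Itga9, Fermt2 and Ilk in A-MSCs (2.45%) and Ptk2 in P-MSCs (7.05%), with no member in fBM-MSCs (2.87%). For Fermt2 and Ilk the test against P-MSCs did not hold on log2(TPM + 1), and for these and Itga9 it did not hold without P-MSC replicate 1. Leaving out replicate 3 of the fBM-MSCs raised this count to 8, and leaving out replicate 1 of the P-MSCs lowered it to 2. In 4 members (Itga10, Itga11, Itgb3 and Itgb5) every bone marrow library was above every non-bone marrow library, and in 4 (Fermt2, Zyx, Bcar1 and Ilk) every one was below, where 10.4% and 9.51% of the tested genes had such separations. Of these, Itga10 entered the tested genes only through bone marrow libraries.

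The partners and ligands of these receptors give the context. Of 63 listed integrin signalling and adhesome partners, 57 were tested and 32 called in bone marrow against the other tissues, 13 higher and 19 lower in bone marrow, where 47.2% of all tested genes were called (24.8% higher and 22.4% lower). Their median was -0.10. The largest called differences upward were Arhgef6 (4.01 ± 0.35, edgeR, adjusted p = 4.67e-06), the exchange factor that binds parvin, and Elmo1 (2.9995 ± 0.65, edgeR, adjusted p = 0.00268), which activates Rac. Arhgef6 was at 6.31 to 13.3 TPM in fBM-MSCs, 1.15 and 3.76 TPM in vBM-MSCs and 0.20 to 0.59 TPM elsewhere, while Elmo1 stayed at 2.98 TPM or less. The largest falls were Tns1 (tensin 1, -1.43 ± 0.29, edgeR, adjusted p = 0.00163) and Fblim1 (migfilin, a filamin and kindlin partner, -1.34 ± 0.12, edgeR, adjusted p = 4.68e-06). Fblim1 stood at 18.6 to 32.2 TPM in bone marrow and 55.6 to 74.8 TPM in the others, with no overlap.

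Of 45 listed integrin ligands, 37 were tested and 27 called, 20 higher and 7 lower in bone marrow, against the same 47.2% of all tested genes (24.8% higher and 22.4% lower). Their median was 0.44. Ibsp (bone sialoprotein, an RGD ligand of the alphav integrins) was at 16.9 to 1010 TPM in bone marrow and had 4 counts over the 6 other libraries, a ratio of depth-scaled counts of 26112 with an exact 95% interval from 10198 to 95837 for counting error only. It is among the 20 called higher but passed the filter on low counts only through the bone marrow libraries, so its call is no support for a difference. Edil3, another RGD ligand of the alphav integrins, was at 13.4 to 30.0 TPM in bone marrow and 0 to 0.49 TPM elsewhere (7.19 ± 0.35, edgeR, adjusted p = 1.08e-07). Npnt (nephronectin, the ligand of the receptor with Itga8) was lower in bone marrow by -2.89 ± 0.37 (edgeR, adjusted p = 6.66e-05), at 1.11 to 7.16 TPM there and 18.9 to 44.1 TPM in A-MSCs and P-MSCs.

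Accessibility was read from the summits of the pooled ATAC-seq peaks at a -log10 q of at least 7, with 59536 to 71345 summits a tissue. With 1 list a tissue there is no replicate check, and the differences below are descriptions. A summit within 1 kb of a curated RefSeq transcription start site was counted as a promoter summit, and 24, 23, 25 and 24 of the 32 members had one in the lists of fBM-MSCs, vBM-MSCs, A-MSCs and P-MSCs. Of 12073 tested genes with such a start site, 87.1%, 89.0%, 89.6% and 88.8% had one in these tissues, and of the 27 tested members 22, 21, 24 and 22 did (81.5%, 77.8%, 88.9% and 81.5%). Zyx had the strongest member promoter, at 60.7- to 91.6-fold enrichment over background, followed by Lims1 (50.4- to 59.6-fold) and Vcl (43.0- to 54.8-fold). The promoter of Itga1 was enriched 25.4-fold in vBM-MSCs and 20.6-fold in A-MSCs, the tissues with the higher Itga1 RNA, against 11.4-fold in fBM-MSCs and 10.3-fold in P-MSCs, although Pelo lies within Itga1 on the same strand. Fermt2 rose from 9.20-fold in fBM-MSCs and 13.3-fold in vBM-MSCs to 17.7-fold in A-MSCs and 15.1-fold in P-MSCs, the order of its RNA. Itga5 was at 14.7-, 12.1-, 25.0- and 29.1-fold in fBM-MSCs, vBM-MSCs, A-MSCs and P-MSCs, so that vBM-MSCs were low in accessibility and not in RNA.

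Promoter summits were found in some tissues only for Itga3 (P-MSCs), Itga7 (fBM-MSCs and A-MSCs), Itga11 (A-MSCs), Itgb6 (all but A-MSCs) and Itgb7 (A-MSCs). Itga11 had the widest span of tissue levels in RNA among the tested members, 8.11 log2 units between vBM-MSCs and P-MSCs. Its difference between fBM-MSCs and vBM-MSCs did not pass. Its promoter summit in A-MSCs lay 34 bases from the start with a -log10 q of 7.24, near the threshold. The fBM-MSCs and vBM-MSCs, with more RNA, had none. The promoters of Itga11 and Itga3, where a peak differed, are shown, from 250 bases before to 50 after the start (RefSeq, GRCm38.p6, 5′ to 3′ on the gene's strand). With them stand Vcl and Fermt2, chosen after their values were seen because each holds a CArG box, the site of serum response factor, in capitals with a GGAATG (TEAD) of Vcl.
Itga11, chr9:62677605-62677904, plus strand: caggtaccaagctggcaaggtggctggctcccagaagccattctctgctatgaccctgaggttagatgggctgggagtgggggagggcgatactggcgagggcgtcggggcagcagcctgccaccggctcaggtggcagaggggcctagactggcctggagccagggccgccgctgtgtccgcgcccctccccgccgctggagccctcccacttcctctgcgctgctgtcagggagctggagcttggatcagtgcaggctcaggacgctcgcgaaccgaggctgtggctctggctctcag
Itga3, chr11:95076665-95076964, minus strand: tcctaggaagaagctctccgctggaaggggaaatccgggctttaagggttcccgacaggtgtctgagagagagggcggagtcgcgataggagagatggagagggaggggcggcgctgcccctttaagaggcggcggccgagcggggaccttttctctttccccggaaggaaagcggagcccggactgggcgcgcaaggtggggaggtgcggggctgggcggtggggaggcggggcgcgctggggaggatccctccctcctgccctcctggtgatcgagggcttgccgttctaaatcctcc
Vcl, chr14:20929148-20929447, plus strand: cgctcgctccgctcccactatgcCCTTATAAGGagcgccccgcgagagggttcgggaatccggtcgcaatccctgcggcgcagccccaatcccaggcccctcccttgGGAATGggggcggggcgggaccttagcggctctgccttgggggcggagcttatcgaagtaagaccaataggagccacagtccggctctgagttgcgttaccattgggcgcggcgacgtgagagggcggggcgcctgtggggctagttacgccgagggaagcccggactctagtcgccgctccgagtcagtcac
Fermt2, chr14:45530016-45530315, minus strand: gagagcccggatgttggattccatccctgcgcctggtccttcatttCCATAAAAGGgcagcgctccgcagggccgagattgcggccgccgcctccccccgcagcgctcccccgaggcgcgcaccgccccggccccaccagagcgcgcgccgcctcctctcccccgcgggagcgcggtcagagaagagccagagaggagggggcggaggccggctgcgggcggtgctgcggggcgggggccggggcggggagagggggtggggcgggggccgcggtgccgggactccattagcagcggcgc
The table held 29 promoters of 23 members, and motifs were counted per promoter on both strands. The CArG box was in 3 of the 29, those of Vcl and Fermt2 and 1 of Itgb6, and in 1.63% of all 32851 promoters. AP-1 (TGANTCA) was in 3 and 7.81% of all promoters, TEAD (GGAATG) in 3 and 14.7%, RUNX (TGTGGT) in 4 and 16.8%, and the GC box (GGGCGG) in 15 and 35.7%. Such a match is a run of letters and not a bound site. The Itga3 summit of P-MSCs lay downstream of the stretch shown. Another promoter of Itga3 (chr11:95069149-95069448, minus strand) is not shown. It holds an AP-1 match at +13 and a RUNX match at -73.

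**Figure D5:**
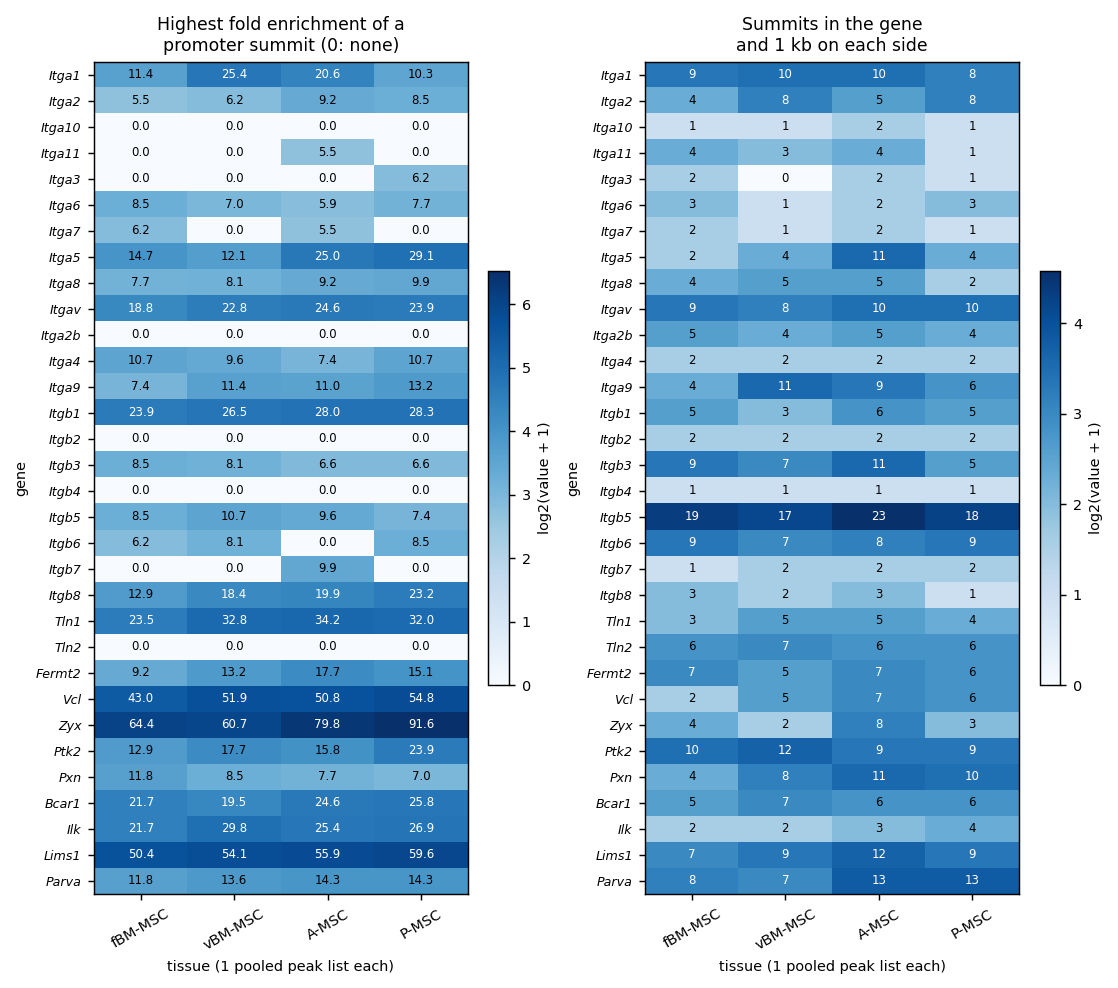
Fold enrichment of the strongest promoter summit (left, 0 where there was none at the threshold) and the number of summits between the transcript ends (right) of the 32 members in the pooled peak list of each tissue, shaded by log2(value + 1). The title of the right panel names 1 kb on each side, which its counts leave out. Zyx, Lims1 and Vcl have the strongest promoters in all tissues, and Itga5 and Zyx have more summits in A-MSCs than in any other tissue.

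Across whole genes with 1 kb on each side, the members held 184 summits in fBM-MSCs and 193 in vBM-MSCs. The A-MSCs had 245 and the P-MSCs 204. Per 100 kb this was 6.15, 6.45, 8.19 and 6.82 for these tissues, against 5.69, 5.67, 6.65 and 5.90 over all tested genes, and the A-MSCs had the highest density in both. The next counts, of Itga5, Zyx, Itga11 and Itga9, were taken between the transcript ends, without the 1 kb flanks. Itga5 had 11 summits in A-MSCs, where the fBM-MSCs had 2 and the vBM-MSCs and P-MSCs 4 each. Zyx had 8 in A-MSCs, with 4, 2 and 3 for the fBM-MSCs, vBM-MSCs and P-MSCs. Itga11 had 4, 3 and 4 summits in fBM-MSCs, vBM-MSCs and A-MSCs and 1 in P-MSCs, the tissue with almost no Itga11 RNA. Itga9 had 11 in vBM-MSCs and 9 in A-MSCs against 4 in fBM-MSCs and 6 in P-MSCs. Summits with no summit of another tissue within 500 bases (listed at any q) numbered 20 of the 245 in A-MSCs (8.16%, against 4.15% of that whole list) and 12 of the 193 in vBM-MSCs (6.22%, against 3.99%). The fBM-MSCs had 7 (3.80%, against 7.92%) and the P-MSCs 6 (2.94%, against 3.54%). At a -log10 q of at least 20 these counts were 1 in A-MSCs, 1 in vBM-MSCs, 1 in fBM-MSCs and 0 in P-MSCs. Of the 20 in A-MSCs, 4 lay in Itga5 and 3 at Zyx.

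The strongest such summit of each tissue, chosen for size after the values were seen, is shown with 100 bases on each side (mm10, plus strand, 5′ to 3′), with matches to AP-1, TEAD or RUNX in capitals. All lay in introns.
Itga11, fBM-MSCs, chr9:62724366-62724566: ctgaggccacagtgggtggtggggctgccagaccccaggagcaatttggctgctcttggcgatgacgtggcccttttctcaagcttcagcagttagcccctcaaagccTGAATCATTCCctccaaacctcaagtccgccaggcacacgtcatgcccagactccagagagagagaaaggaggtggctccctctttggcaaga
Tln2, vBM-MSCs, chr9:67534539-67534739: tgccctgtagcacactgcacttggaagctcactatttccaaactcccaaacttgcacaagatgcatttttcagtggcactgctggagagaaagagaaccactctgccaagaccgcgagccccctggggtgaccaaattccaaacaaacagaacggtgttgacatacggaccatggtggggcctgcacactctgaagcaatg
Fermt2, A-MSCs, chr14:45497175-45497375: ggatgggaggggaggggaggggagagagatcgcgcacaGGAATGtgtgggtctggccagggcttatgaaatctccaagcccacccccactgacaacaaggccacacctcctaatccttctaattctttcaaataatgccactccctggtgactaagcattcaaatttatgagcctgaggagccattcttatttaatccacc
Itga2, P-MSCs, chr13:114886699-114886899: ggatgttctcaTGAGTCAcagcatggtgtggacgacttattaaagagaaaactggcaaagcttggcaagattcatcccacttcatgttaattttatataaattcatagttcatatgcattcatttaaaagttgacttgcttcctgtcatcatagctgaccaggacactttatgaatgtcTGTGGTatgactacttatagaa
The Itga11 summit (11.4-fold, -log10 q 24.6) holds TGAATCA, an AP-1 match, overlapping a TEAD match read on the other strand. The Fermt2 summit (10.7-fold, -log10 q 22.4) holds GGAATG, and the Itga2 summit (8.46-fold, -log10 q 15.4) holds TGAGTCA and TGTGGT. The Tln2 summit (12.5-fold, -log10 q 28.4) holds none of the motifs searched. AP-1 matches were in 34.2% of all fBM-MSC summits and 35.0% of P-MSC summits, and GGAATG in 16.6% of fBM-MSC and 19.9% of A-MSC summits. TGTGGT was in 16.8% of P-MSC summits.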

How the data were processed

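Cultured MSCs of 4 mouse tissues were profiled by RNA-seq (Smart-seq2, not strand-specific) and ATAC-seq. For RNA-seq the authors ran RSEM with STAR against mm10. The deposited expected counts are RSEM's estimates, not normalized, and the deposited TPM values are scaled by the authors' RSEM run for effective length, so that each library has the same sum. FPKM values deposited beside them by the authors were not used. For ATAC-seq the authors trimmed reads (Trim Galore), aligned them (Bowtie), removed duplicates (Picard), shifted reads for Tn5 and called summits with MACS2, with model building and the local lambda switched off. The lists they deposited hold the fold enrichment of each summit as a ratio, and its −log10 p and −log10 q value, 1 pooled list a tissue. Chromosome positions in the deposited lists and summit offsets from the authors, in bases, placed the summits. Versions of these tools are not given in the sources used here.

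After rounding, the counts entered the two-sided quasi-likelihood F test of edgeR 4.0.16 in R 4.3.3 (TMM factors 0.913 to 1.11), with tissue as the only term. The 12509 genes tested reached 1 CPM in 2 or more of the 11 libraries. Replicates are biological by their labels. Alternatives used DESeq2 1.42.0, limma 3.58.1 (log2(TPM + 1) and log2(TPM + 0.1)), RLE factors, no filter, the replicate number as a block, and each library left out. The test was checked on simulated data. Transcription start sites and sequences came from curated RefSeq on GRCm38.p6, whose chromosomes are those of mm10, and were read with Python 3.11.15 and pysam 0.24.0. The members, gene lists and tests were chosen with earlier results of these data known. Every member is named, and full values are given for the 14 with the widest span among those called across tissues with a mean of at least 1 TPM, plus Itgb1, Ptk2 and Tln1 (Vcl, also named in the rule, was already among the 14), 17 in all. In each list of partners and ligands, the 2 largest called rises and falls are named, except 1 gene that is not reported here. Promoters were to be printed where a promoter peak differed between tissues, and those of Itgb6 and Itgb7, under 1 TPM, Itga7 and another of Itga3 are not shown.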

Additional observations from a re-analysis of the deposited data

How the results depend on the processing

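The direction of all 123 called fold changes of members and named partner genes was kept in all 2238 alternative values, and 87 of these fold changes stayed past the threshold in each. The other 36 were lost in 183 of the alternatives. Where a loss is described above, not every setting that lost the call is always named. Calls between A-MSCs and P-MSCs were lost in 3 of 19 alternatives for Itga3 and Itgb5 and in 4 of 19 for Fermt2 and Ilk. That of Itga3 between fBM-MSCs and vBM-MSCs was lost in 4 of 19, and that of Itga8 between vBM-MSCs and P-MSCs in 2 of 18. Leaving out 1 library at a time gave 21 to 24 members called among the 4 tissues, 14 to 16 between bone marrow and non-bone marrow, 5 to 11 between fBM-MSCs and vBM-MSCs, 9 to 17 between A-MSCs and P-MSCs, 10 to 15 between A-MSCs and the mean of the others, and 2 to 8 higher in 1 tissue than in each other. It gave 29 to 35 called partners and 25 to 28 called ligands. The lowest values came without vBM-MSC replicate 1 (5) and P-MSC replicate 1 (9 and 2). When only 1 vBM-MSC library is left, it is assumed to vary like the other groups. A model of fBM-MSCs and vBM-MSCs alone called 4 members. One of A-MSCs and P-MSCs alone called 19, with 14 higher and 5 lower in A-MSCs. Over all genes these models called 305 and 5263, against 1601 and 3869 with all libraries. The median of the members in bone marrow against non-bone marrow turned from -0.06 to 0.04 on log2(TPM + 1), and ran from -0.22 to 0.10 with 1 library left out.

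Same-numbered libraries did not deviate together (r -0.0279 to 0.125 over genes, over 0.1 in 1 of 15 pairs). This cannot show that the numbers do not pair the samples, since libraries of the same mouse need not deviate together. With 2 vBM-MSC libraries, their deviations also mirror each other by construction (r 0.125 and -0.125 with fBM-MSC replicate 1). The main tests do not pair the samples. With the replicate number as a block, 22, 16, 9, 15 and 14 members were called in the comparisons above in that order, 6 were higher in 1 tissue than in each other, and 32 partners and 27 ligands were called.

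At a -log10 q of at least 20, 15 members had a promoter summit in fBM-MSCs and 15 in A-MSCs. Member gene summits then numbered 81, 77, 103 and 99 in fBM-MSCs, vBM-MSCs, A-MSCs and P-MSCs, and those of 1 tissue only 1, 1, 1 and 0. With every listed summit, member gene summits were 314, 324 and 399 in fBM-MSCs, vBM-MSCs and A-MSCs, and those of 1 tissue only 27, 44, 75 and 16 with P-MSCs. At 1000 bases the A-MSCs had 13 of their own. These settings for whole genes were chosen after seeing the data. Depth limits members under 1 TPM, and pooled peak lists carry no measure of replicate error.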
